A study of Mus musculus with 7 samples.

Results

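RNA from 2 fractions of fetal mouse mammary cells, each named fetal mammary stem cells (fMaSC) and each obtained by a different sort, was compared gene by gene. One fraction was positive for a Sox10-Venus fluorescent reporter and for the surface protein EpCAM (Sox10+EpCAM+, 2 libraries). The other was positive for CD24 and CD49f and negative for lineage markers (CD24+CD49f+, 2 libraries). These 4 of the 7 libraries of the series were chosen by their sort labels, and 13717 of 38579 gene entries reached 1 FPKM (fragments per kilobase of transcript, scaled to the mapped fragments of the library) in at least 2 of the 4 and were tested. Every library came from primary cells of CD1 embryos at stage E17.5 of gestation, and the labels call them biological replicates. The 3 remaining libraries are stroma and serve as a reference level: 2 CD24low lineage-negative libraries from the CD24 sort and 1 library from the reporter sort that was EpCAM-negative and, per its title, also Sox10-negative and lineage-negative. Cells positive for the Sox10 reporter were thus gated out of that library, here called EpCAM-negative stroma. The labels do not describe how the reporter was built, how many embryos gave each library or which lineage markers were used, and 1 of the Sox10+EpCAM+ labels omits the lineage-negative step that its column name carries. Cells that carry the reporter were analysed only through the reporter sort, so an effect of the reporter and an effect of the gate cannot be told apart.

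The fetal mammary rudiment is a small epithelial tree that grows into dense mesenchyme and a precursor of the fat pad. CD24 and the integrin CD49f mark epithelial cells, but both also occur on other cells, CD24 on B cell precursors, red cells and neural cells and CD49f on Schwann cells, endothelium and platelets. EpCAM is largely restricted to epithelium. Sox10 is a transcription factor of neural crest, Schwann cells and melanoblasts as well as of mammary epithelium, so that a joint gate on Sox10 and EpCAM asks for cells with both properties. The comparison asks which cell types the broader sort keeps and which the narrower sort leaves out.

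An estimate from low values put about 25400000 to 37200000 fragments behind each of the 7 libraries. The Sox10+EpCAM+ libraries resembled each other more than the CD24+CD49f+ libraries did, with Pearson's r across genes (which are not replicates) of 0.988 against 0.934. CD24+CD49f+ replicate 2 correlated more with the 3 stroma libraries (0.909 to 0.919) than with the Sox10+EpCAM+ libraries (0.87 and 0.885), and replicate 1 correlated more with the latter (0.924 and 0.922) than with stroma (0.875 to 0.909). Globin transcripts took 0.912% of the summed FPKM in CD24+CD49f+ replicate 1, 0.172% in replicate 2 and at most 0.0397% elsewhere. Mitochondrial genes took 9.94% in CD24+CD49f+ replicate 2 and 15.6% to 19% in the other 3 libraries compared. Ddx3y and Eif2s3y, on chromosome Y, stood at 2.42 and 3.74 FPKM in CD24+CD49f+ replicate 2. Both were at 0 in the other 3 libraries compared. In stroma, CD24low replicate 2 had 2.46 and 3.69 FPKM, and the remaining stroma libraries had 0. An effect of sex was not tested. The CD24+CD49f+ group therefore consists of 2 libraries that stand apart from each other, and the counts below are also given without either where that moves them.

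Genes of stromal and other non-epithelial cells made up most of the difference, and they were lower in the Sox10+EpCAM+ libraries. Limma, with Benjamini-Hochberg adjustment over all 13717 genes and a threshold of 0.05, called 882 genes (6.43%), of which 824 (6.01%) were lower and 58 (0.423%) higher in Sox10+EpCAM+. The median log2 fold change of all genes was 0.01, where a fold is Sox10+EpCAM+ minus CD24+CD49f+ on the log2(FPKM + 1) scale, which understates changes at low levels. Among the 824 lower genes, 506 (61.4%) had both CD24+CD49f+ libraries below all 3 stroma libraries. Another 111 (13.5%) had both CD24+CD49f+ libraries above all 5 others, and the remaining 207 had neither order. The count of calls depended on each library, at 321 without Sox10+EpCAM+ replicate 1, 431 without its replicate 2, 5661 without CD24+CD49f+ replicate 1 (2606 higher, 3055 lower) and 2715 without its replicate 2 (931 higher, 1784 lower). It also depended on the filter, since 15 of 26846 genes were called when none was filtered out for low values. A gene under 1 FPKM in both Sox10+EpCAM+ libraries was tested only if both CD24+CD49f+ libraries reached 1. Its fold could then only be negative, without overlap between the groups. Members of several lists below, such as Kcnj8, Cdh19 and Lyve1, were of this kind. The libraries of both groups did not overlap in 50.6% of all genes, so lack of overlap alone is common here. An unadjusted p under 0.05 was common too, in 2862 of the 13717 genes.

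**Figure D1:**
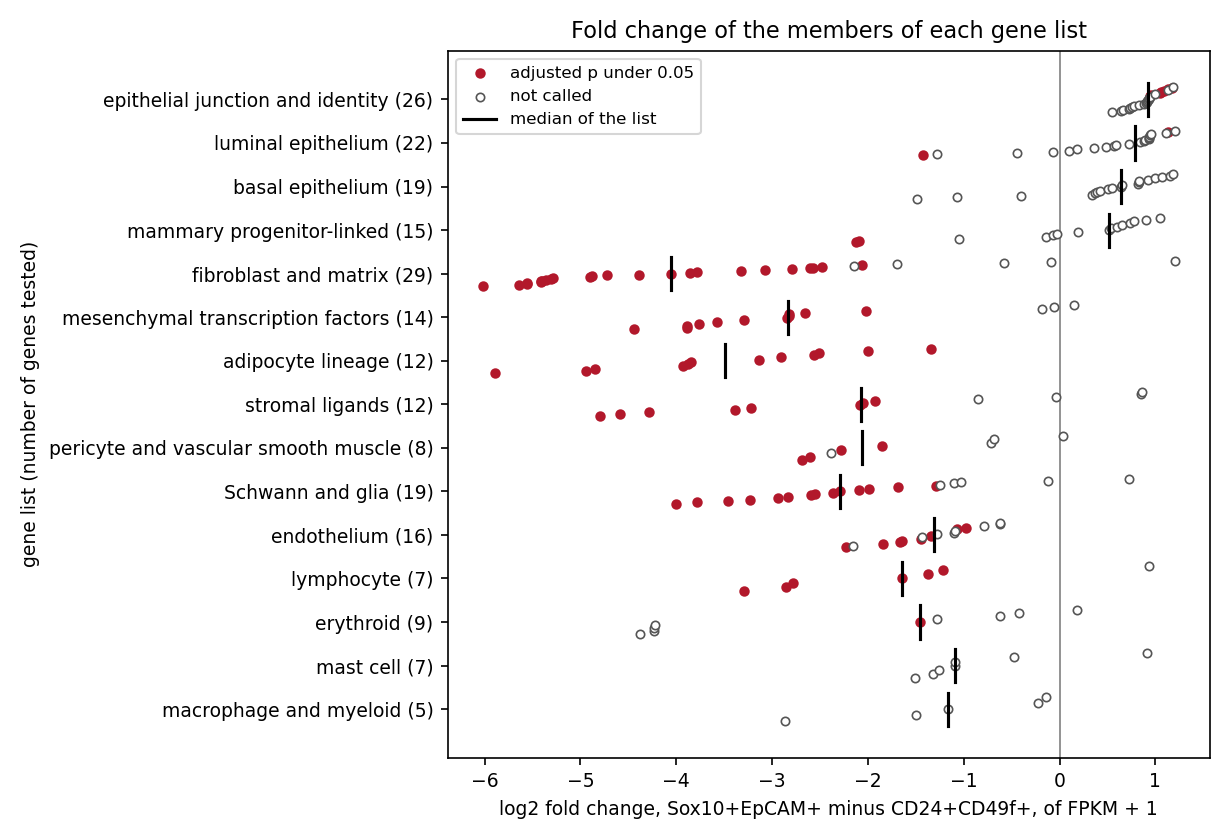
Log2 fold change (Sox10+EpCAM+ minus CD24+CD49f+, of FPKM + 1, x axis) of the tested members of 15 gene lists (y axis, with the number tested). Filled points passed an adjusted p of 0.05, open points did not, and bars are list medians. The fibroblast, mesenchymal transcription factor, adipocyte and Schwann lists lie left of 0, with medians from −4.06 to −2.29, and the epithelial junction list lies right of 0, with a median of 0.93.

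Matrix genes of fibroblasts showed the largest fall. Of the 29 tested members of a fibroblast and matrix list of 30, 24 were lower in Sox10+EpCAM+ and 0 higher, with a median of −4.06 against 0.01 for all genes. Clec3b (ENSMUSG00000025784, chromosome 9, 123150946 to 123157430 of GRCm38), which encodes tetranectin, stood at 0.57 and 1.23 FPKM in the Sox10+EpCAM+ libraries, at 101 and 143 in CD24+CD49f+, at 315 and 356 in CD24low stroma and at 236 in EpCAM-negative stroma. The CD24+CD49f+ libraries thus sat between the other groups without overlap, and the fold was −6.02 (SE 0.28, limma adjusted p = 0.00456). Col1a1 (ENSMUSG00000001506, chromosome 11, 94936224 to 94953042), a chain of type I collagen, stood at 9.51 and 16.9 FPKM in Sox10+EpCAM+, at 386 and 883 in CD24+CD49f+ and at 1442 to 1877 in the 3 stroma libraries (fold −5.42, SE 0.50, adjusted p = 0.00989). Its partner Col1a2 and the type III collagen gene Col3a1 fell by 5.64 and 5.56. Dcn, which encodes the proteoglycan decorin, stood at 6.12 and 7.7 FPKM in Sox10+EpCAM+ and at 316 and 356 in CD24+CD49f+, a fold of −5.42 (adjusted p = 0.00368).

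Other genes with the largest falls had the same arrangement. The small proteoglycan gene Aspn (−5.85), the adhesive matrix gene Dpt (−5.56), the periostin gene Postn (−5.40), the collagen VI gene Col6a1 (−5.36) and the microfibril gene Mfap4 (−5.34) were at 0.612 to 18.4 FPKM in the Sox10+EpCAM+ libraries and at 59.9 to 735 in CD24+CD49f+. Agtr2, the type 2 angiotensin receptor, known from fetal mesenchyme, was at 1.74 and 2.57 FPKM in Sox10+EpCAM+ and at 116 and 224 in CD24+CD49f+ (fold −5.70). Relative to the mean of the CD24low libraries, the median list member stood at 0.690% and 1.05% in the Sox10+EpCAM+ libraries. The same median was 30.7% and 46.6% in CD24+CD49f+ replicates 1 and 2 and 88.0% in EpCAM-negative stroma. In RNA from whole fractions, fewer cells of a type and less RNA per cell cannot be told apart, here and for every cell type below. Of the 29 tested members, 5 were not called. Among these was Mgp, a matrix inhibitor of calcification and the only member with a fold above 0 (fold 1.21, adjusted p = 0.429). Mgp was higher in all 4 fMaSC libraries (501, 376, 362 and 97 FPKM) than in stroma (at most 27.4). The list median was −4.43 and −4.05 without CD24+CD49f+ replicate 1 or 2, and −3.87 and −4.24 without Sox10+EpCAM+ replicate 1 or 2.

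Transcription factors of mesenchyme followed the matrix genes. Of 14 tested, 11 were lower in Sox10+EpCAM+ and 0 higher, with a median of −2.83. Prrx1 (ENSMUSG00000026586, chromosome 1, 163245116 to 163313710), a homeobox gene of limb and body wall mesenchyme, stood at 0.381 and 0.463 FPKM in Sox10+EpCAM+ and at 19.2 and 46.3 in CD24+CD49f+, against 41.6 to 49.0 in stroma (fold −4.44, SE 0.43, adjusted p = 0.0101). CD24+CD49f+ replicate 2 was therefore within the stromal range for this gene and replicate 1 below it. Twist1 and Twist2, which specify mesenchyme, fell by 3.89 and 3.57, and Zeb1 and Zeb2, repressors of E-cadherin, by 2.83 and 3.89. Zeb2 stood at 1.10 and 2.94 FPKM in Sox10+EpCAM+ and at 29.4 and 58.7 in CD24+CD49f+. The median member was at 42.4% of the CD24low mean in CD24+CD49f+ replicate 1 and at 76.2% in replicate 2.

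Genes of the fat cell lineage were also lower in the Sox10+EpCAM+ libraries, in 12 of 12 tested members of a list of 14 (median −3.49). Adipoq (ENSMUSG00000022878, chromosome 16, 23146536 to 23158028), which encodes the hormone adiponectin, stood at 0.565 and 0.408 FPKM in Sox10+EpCAM+, at 71.3 and 27.9 in CD24+CD49f+ and at 93.9 to 188 in stroma (fold −4.94, SE 0.46, adjusted p = 0.00989). Pparg, the transcription factor that drives fat cell formation, stood at 0.647 and 0.668 FPKM in Sox10+EpCAM+ and at 24.5 and 23.9 in CD24+CD49f+ (fold −3.93). The lipoprotein lipase gene Lpl fell by 4.85, the lipid droplet gene Plin1 by 3.14, the fatty acid transporter gene Cd36 by 2.56 and Car3, a carbonic anhydrase of fat and muscle, by 5.89. The fatty acid binding gene Fabp4 (fold −3.85) and Dlk1, a surface inhibitor of fat cell formation (−3.87), lost their calls without Sox10+EpCAM+ replicate 1 (adjusted p = 0.0527 and 0.24) or replicate 2 (0.0692 and 0.172). The list itself counted 6 members without replicate 1 and 8 without replicate 2.

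The CD24+CD49f+ libraries differed in which stromal genes were high. Of the 12 adipocyte genes, 10 were higher in CD24+CD49f+ replicate 1 than in replicate 2, whereas 25 of 29 fibroblast genes and 13 of 14 mesenchymal transcription factors were higher in replicate 2. Over all genes tested, replicate 1 was above replicate 2 in 6373 and below it in 7339. Fabp4, for example, stood at 388 FPKM in replicate 1 and 103 in replicate 2, and Prrx1 at 19.2 and 46.3. The median adipocyte member was at 37.7% of the CD24low mean in replicate 1 and at 19.4% in replicate 2. With 1 library behind each value, these differences have no replicate check.

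**Figure D2:**
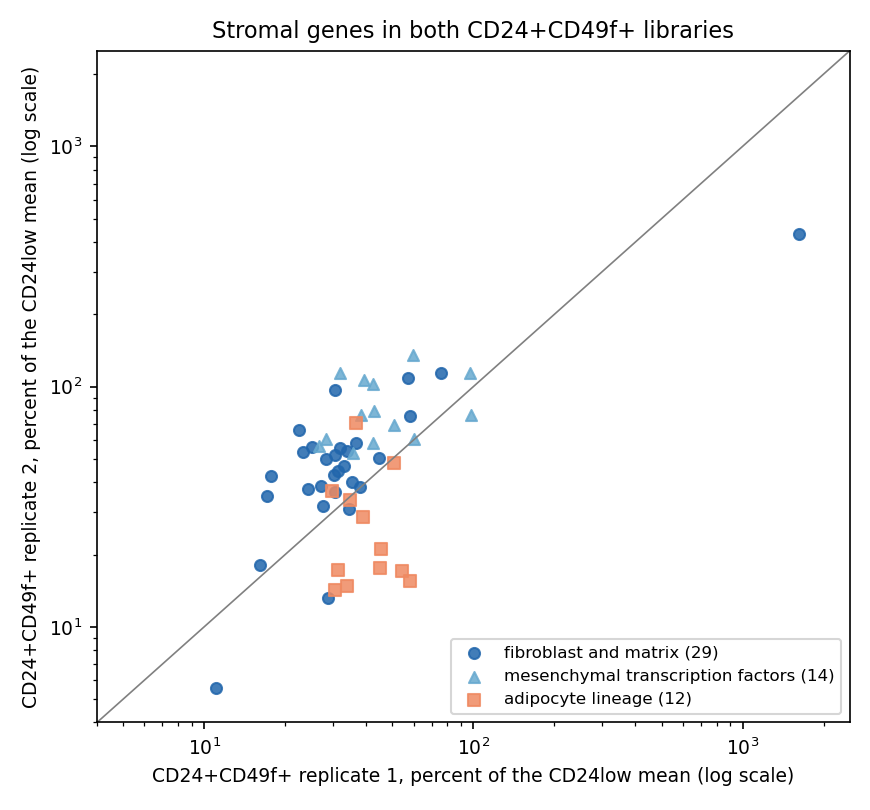
Level of each tested stromal gene in CD24+CD49f+ replicate 1 (x axis) and replicate 2 (y axis), as a percent of the mean of the 2 CD24low stroma libraries, both on log scales, with a line of equal values. Most fibroblast and mesenchymal transcription factor genes lie above the line and 10 of 12 adipocyte genes below it, and the point at the far right is Mgp.

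Growth factors that stroma sends to epithelium formed a further group. Of 12 tested members of this list, 8 were lower in Sox10+EpCAM+ and 0 higher. Fgf10 (ENSMUSG00000021732, chromosome 13, 118669791 to 118792115), a mesenchymal ligand needed for mammary bud growth, stood at 0.152 and 0.124 FPKM in Sox10+EpCAM+, at 6.88 and 13.4 in CD24+CD49f+ and at 22.5 to 25.1 in stroma (fold −3.23, SE 0.32, adjusted p = 0.0109). Its relative Fgf7 fell by 3.39. The insulin-like growth factor genes Igf2 and Igf1 fell by 4.80 and 4.58, and Igf1 stood at 19.3 and 40.3 FPKM in CD24+CD49f+, against 19.9 to 34.2 in stroma. Cxcl12, a chemokine of mesenchyme, fell by 4.29, and the Wnt ligand gene Wnt2 by 2.08.

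Pericyte genes gave a smaller count. Of 8 tested, 4 were lower in Sox10+EpCAM+ (median −2.07). Kcnj8 (ENSMUSG00000030247, chromosome 6, 142564939 to 142571356), a potassium channel of pericytes, stood at 0.0661 and 0.212 FPKM in Sox10+EpCAM+, at 8.77 and 4.51 in CD24+CD49f+ and at 20.8 to 27.9 in stroma (fold −2.69, SE 0.31, adjusted p = 0.0158). Its partner subunit Abcc9 fell by 2.28 and the receptor gene Pdgfrb, which is also a member of the fibroblast and matrix list, by 2.61. Rgs5, a common pericyte marker, differed between the CD24+CD49f+ libraries (14.9 and 2.73 FPKM) and did not pass (adjusted p = 0.135).

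Schwann cell genes differed from the stromal groups in where they peaked. Of 19 tested members of the Schwann and glia list, 14 were lower in Sox10+EpCAM+ and 0 higher (median −2.29), and 13 of the 19 had both CD24+CD49f+ libraries above all 5 other libraries. Of the 14 lower members 11 had this order, against 111 (13.5%) of all 824 lower genes. Its share over all tested genes was not counted, here or for the lists below. The summed FPKM of the list was 429 and 357 in CD24+CD49f+, 90.4 and 116 in Sox10+EpCAM+ and 179 to 189 in the 3 stroma libraries. Gfra3, an artemin co-receptor of Schwann cell precursors, stood at 13.0 and 15.4 FPKM in CD24+CD49f+, at 0.751 and 1.24 in Sox10+EpCAM+, at 0.765 and 0.571 in CD24low and at 0.0983 in EpCAM-negative stroma (fold −2.94, SE 0.21, adjusted p = 0.00655). Mal, the myelin and lymphocyte protein gene, stood at 26.5 and 14.1 FPKM in CD24+CD49f+, at 0.652 and 1.84 in Sox10+EpCAM+ and at 0.0687 to 0.9 in stroma (fold −3.23). Only the CD24+CD49f+ libraries were high for these 2 genes.

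The other Schwann genes included precursor as well as myelin genes. Foxd3, a transcription factor of neural crest and Schwann cell precursors, stood at 9.29 and 12.5 FPKM in CD24+CD49f+ and at 0.114 to 1.32 in the other 5 libraries (fold −2.55, adjusted p = 0.0101). The cadherin gene Cdh19 fell by 2.29. Pmp22 and Ngfr, which fell by 4.00 and 3.78, are also made by mesenchyme, and Pmp22 was at 73.0 and 74.0 FPKM in CD24+CD49f+ and at 75.1 to 99.9 in stroma. Erbb3, a neuregulin receptor shared by Schwann cells and mammary epithelium, did not pass (34.1 and 39.4 FPKM in Sox10+EpCAM+, 18.2 and 26.1 in CD24+CD49f+, adjusted p = 0.185). Sox10 is a marker of Schwann cells too, but it belongs to the gate of 1 fraction and its level is given with the sort markers. The calls of the myelin basic protein gene Mbp (fold −2.83), of the Schwann cell ligand gene Dhh (−1.99) and of Mag (−1.69), a glycoprotein of myelin sheaths, ended without Sox10+EpCAM+ replicate 1 (adjusted p of 0.0533 to 0.107). The list counted 8 lower members without that library, 13 without its replicate, and 16 and 17 without CD24+CD49f+ replicates 1 and 2.

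**Figure D3:**
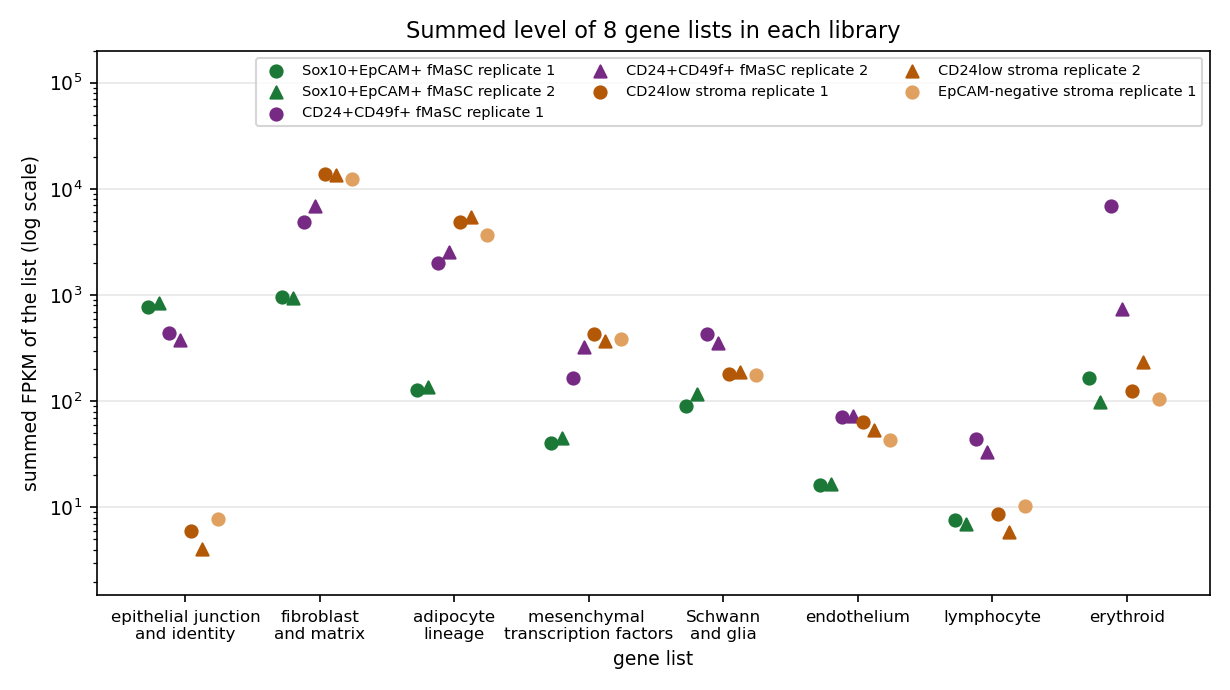
Summed FPKM of the members of 8 gene lists (y axis, log scale) in each of the 7 libraries, coloured by fraction and shaped by replicate. CD24+CD49f+ lies between Sox10+EpCAM+ and stroma for the fibroblast, adipocyte and mesenchymal lists, and above all other libraries for the Schwann, endothelial, lymphocyte and erythroid lists.

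Nerve and pigment cell genes were thin. Of 5 neuronal genes tested, 2 were lower in Sox10+EpCAM+, Gap43 (fold −4.25), a growth cone gene that stood at 39.2 to 67.1 FPKM in stroma and 24.8 and 28.8 in CD24+CD49f+, and the neurofilament gene Nefm (7.67 and 3.58 FPKM in CD24+CD49f+, at most 2.39 elsewhere). The Nefm call (fold −2.30) ended without Sox10+EpCAM+ replicate 1 (adjusted p = 0.0537). Of 5 melanoblast genes, Ednrb, the endothelin receptor of neural crest cells, was lower (fold −2.25), at 1.27 and 2.86 FPKM in Sox10+EpCAM+ and 12.9 and 13.4 in CD24+CD49f+. That call ended without the same library (0.0684). The pigment genes themselves did not pass, and their values ran the other way. Dct, a melanin enzyme, stood at 10.2 and 13.5 FPKM in Sox10+EpCAM+ and at 7.2 and 1.77 in CD24+CD49f+ (adjusted p = 0.234), and Pmel, a pigment granule protein, at 3.26 and 4.35 against 1.87 and 0.965 (adjusted p = 0.1).

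Endothelial genes were lower in Sox10+EpCAM+ in 8 of 16 tested members (median −1.31), and 8 members had both CD24+CD49f+ libraries above all others. Cldn5 (ENSMUSG00000041378, chromosome 16, 18776847 to 18778260), a claudin of endothelial junctions, stood at 1.18 and 1.01 FPKM in Sox10+EpCAM+, at 9.96 and 7.83 in CD24+CD49f+ and at 1.30 to 3.29 in stroma (fold −2.23, SE 0.19, adjusted p = 0.00879). Lyve1 (ENSMUSG00000030787, chromosome 7, 110850607 to 110862953), a hyaluronan receptor of lymphatic endothelium, stood at 0.0274 and 0.125 FPKM, 3.22 and 2.52, and 0.279 to 0.41 in the same order (fold −1.84, adjusted p = 0.0101). Other genes known from lymphatic vessels, chosen after their values were seen, had the same order. Ccl21a (ENSMUSG00000094686, chromosome 4, 42772860 to 42773993), a lymphatic chemokine with near-identical gene copies, so that its value is uncertain, stood at 14.9 and 6.76 FPKM in CD24+CD49f+ and at 0.0159 to 0.517 in the other 5 libraries. Mmrn1, an adhesion protein of lymphatic vessels and platelets, stood at 5.09 and 3.02 FPKM in CD24+CD49f+ and at 0.00831 to 0.334 elsewhere. Prox1, the transcription factor that specifies lymphatic endothelium, did not pass (fold −1.27, adjusted p = 0.0617).

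Some endothelial calls needed both Sox10+EpCAM+ libraries. Cdh5, the cadherin of endothelial junctions, stood at 0.857 and 0.743 FPKM in Sox10+EpCAM+, at 3.53 and 6.14 in CD24+CD49f+ and at 1.36 to 3.98 in stroma (fold −1.66). Its call and that of the adhesion gene Pecam1 (fold −1.34) ended without Sox10+EpCAM+ replicate 1 (adjusted p = 0.106 and 0.288) or replicate 2 (0.109 and 0.0882). The endothelial list counted 2 members without either of those libraries and 15 without either CD24+CD49f+ library.

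Genes of B cell precursors were read in the CD24+CD49f+ libraries although both were labelled lineage-negative. Of 18 listed lymphocyte genes, 7 were tested. Of these, 6 were lower in Sox10+EpCAM+, and the same 6 had both CD24+CD49f+ libraries above all 5 others. Ighm, Vpreb1, Igll1, Cd79b and Rag1 passed the filter only through the CD24+CD49f+ libraries. Their direction was therefore set before the test. Ighm (ENSMUSG00000076617, chromosome 12, 113418950 to 113422730), the constant region of the IgM heavy chain, stood at 0 and 0.051 FPKM in Sox10+EpCAM+, at 9.68 and 8.48 in CD24+CD49f+ and at 0.535 to 0.689 in stroma (fold −3.30, SE 0.17, adjusted p = 0.00456). Vpreb1 (ENSMUSG00000059305, chromosome 16, 16868402 to 16870843) and Igll1 (ENSMUSG00000075370, chromosome 16, 16860671 to 16863985) encode the surrogate light chain that B cell precursors carry before they make a light chain. Vpreb1 stood at 0.239 and 0.109 FPKM in Sox10+EpCAM+, at 10.5 and 4.67 in CD24+CD49f+ and at 0.06 to 0.559 in stroma (fold −2.78, adjusted p = 0.0208). Igll1 was listed at 0 in both Sox10+EpCAM+ libraries, at 8.4 and 4.58 FPKM in CD24+CD49f+ and at 0.0167 to 0.468 in stroma (adjusted p = 0.0111).

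The remaining members gave lower values in the same order. Cd79a and Cd79b, the signalling chains of the B cell receptor, stood at 4.36 and 3.89 FPKM and at 3.51 and 1.89 in CD24+CD49f+, with folds of −1.37 and −1.64. Rag1, the recombinase of developing lymphocytes, stood at 1.33 and 1.48 FPKM there and at most 0.05 in the other 5 libraries (fold −1.22). These 3 calls ended without either Sox10+EpCAM+ library (adjusted p of 0.0659 to 0.137), and the list then counted 3. The pan-leukocyte gene Ptprc was under the filter, at 0.256 and 0.276 FPKM in CD24+CD49f+ and 0.122 to 0.598 in stroma. Lck, a kinase of T cells that some epithelia also use, was the member in the other direction (5.88 and 5.08 FPKM in Sox10+EpCAM+, 2.16 and 2.62 in CD24+CD49f+) and did not pass (adjusted p = 0.056). Genes of mast cells (7 tested) and of myeloid cells (5 tested) gave 0 calls with limma (4 and 2 at an unadjusted p under 0.05), although S100a9, a protein of neutrophils, read 0 and 1.79 FPKM in Sox10+EpCAM+ against 21.2 and 5.69 in CD24+CD49f+ (adjusted p = 0.105).

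Globin genes were high in both CD24+CD49f+ libraries, at unequal levels. Hba-a1 (ENSMUSG00000069919, chromosome 11, 32283511 to 32284465), an alpha globin gene with a near-identical copy in Hba-a2, stood at 1984 and 217 FPKM in CD24+CD49f+, at 43.7 and 26.7 in Sox10+EpCAM+ and at 31.3 to 58.2 in stroma. Hbb-bs (ENSMUSG00000052305, chromosome 7, 103826534 to 103828096), an adult beta globin gene, stood at 2677 and 270 FPKM, at 62.2 and 31.6 and at 29.8 to 85.3 in the same order. Neither group overlapped the other, but replicates 1 and 2 of CD24+CD49f+ differed so much that the folds of −4.22 and −4.23 did not pass (SE 1.07 and 1.13, limma adjusted p = 0.0984 and 0.112). Of 9 erythroid genes tested 1 was called, lower in Sox10+EpCAM+, and it lost its call without either Sox10+EpCAM+ library. Without either CD24+CD49f+ library, 7 of the 9 were called lower, and 6 were with all libraries scaled to the same sum.

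The promoters of these blood genes are shown because these genes were high in the same 2 of the 7 libraries. They are 300 bases of RefSeq (GRCm38.p6), from 250 before to 50 after the annotated start, 5′ to 3′ on the strand of the gene. In the B cell genes, capitals mark matches on either strand to CAGGTG, a core recognised by E proteins. In the globin genes they mark matches to 3 motifs. The first is GATAAG, which binds GATA factors. The next is CACCC, which binds Kruppel-like factors. The last is TATAAG, a box of the TATA type, which differs from the first motif in its first letter. The windows are chr16:16869206-16869505 on the minus strand for Vpreb1, chr16:16863936-16864235 on the minus strand for Igll1, chr11:32283422-32283721 on the plus strand for Hba-a1 and chr7:103827879-103828178 on the minus strand for Hbb-bs.
Vpreb1: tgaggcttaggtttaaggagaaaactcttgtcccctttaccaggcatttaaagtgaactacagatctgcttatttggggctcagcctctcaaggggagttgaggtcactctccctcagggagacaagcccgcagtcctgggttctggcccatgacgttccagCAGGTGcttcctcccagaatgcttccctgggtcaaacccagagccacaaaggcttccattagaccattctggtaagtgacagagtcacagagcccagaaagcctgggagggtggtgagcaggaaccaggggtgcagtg
Igll1: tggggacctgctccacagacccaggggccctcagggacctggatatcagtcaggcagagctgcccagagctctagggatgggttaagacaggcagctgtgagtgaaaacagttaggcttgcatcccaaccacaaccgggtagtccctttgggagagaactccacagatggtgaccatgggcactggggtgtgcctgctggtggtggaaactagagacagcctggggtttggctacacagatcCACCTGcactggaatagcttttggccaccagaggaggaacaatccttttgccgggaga
Hba-a1: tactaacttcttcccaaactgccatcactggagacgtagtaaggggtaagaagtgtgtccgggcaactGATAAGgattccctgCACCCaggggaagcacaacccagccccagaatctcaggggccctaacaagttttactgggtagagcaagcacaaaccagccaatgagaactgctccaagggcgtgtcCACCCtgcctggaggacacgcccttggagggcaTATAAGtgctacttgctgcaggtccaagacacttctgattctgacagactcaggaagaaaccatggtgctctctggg
Hbb-bs: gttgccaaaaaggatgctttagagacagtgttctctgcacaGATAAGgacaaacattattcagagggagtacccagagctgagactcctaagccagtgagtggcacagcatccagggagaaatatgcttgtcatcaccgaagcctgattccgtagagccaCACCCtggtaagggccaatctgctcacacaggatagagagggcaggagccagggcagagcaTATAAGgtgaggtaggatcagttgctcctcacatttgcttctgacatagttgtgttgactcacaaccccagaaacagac
All 5 of the tested lymphocyte genes matched in this table held CAGGTG, as did 20.2% of all 32851 promoters, and 4 of the 6 matched erythroid genes held GATAAG, as did 7.44% of all. CACCC stood in 57.5% of all promoters and TATAAG in 7.43%. These are matches of letters in a window, with no binding measured.

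On the epithelial side the same comparison ran the other way, with small and even folds. The genes of the sorting reagents, which the gates partly set, read about as far apart as other epithelial genes. Epcam stood at 219 and 230 FPKM in Sox10+EpCAM+ and at 137 and 88.5 in CD24+CD49f+, and Sox10 at 103 and 110 against 58.0 and 58.7. Cd24a, which encodes CD24, stood at 399 and 379 FPKM against 246 and 161, and Itga6, which encodes CD49f, at 115 and 146 against 77.2 and 100. The 4 folds lay between 0.55 and 1.02, and 0 passed limma. At an unadjusted p under 0.05, 3 did, against 2862 of all 13717 genes. The groups did not overlap in 4 of 4, against 50.6% of all genes.

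Junction and identity genes of epithelium gave the clearest group. All 26 members were tested, 7 were higher in Sox10+EpCAM+ and 0 lower, 26 of 26 folds lay above 0, between 0.54 and 1.19, and the median was 0.93. Spint1 (ENSMUSG00000027315, chromosome 2, 119237362 to 119249527), an inhibitor of epithelial surface proteases, stood at 32.2 and 34.2 FPKM in Sox10+EpCAM+, at 14.8 and 13.6 in CD24+CD49f+ and at 0.019 to 0.189 in stroma (fold 1.17, SE 0.17, adjusted p = 0.0277). Grhl2, a transcription factor that maintains epithelial junctions, stood at 11.7 and 12.1 FPKM against 4.68 and 5.85 (fold 1.05), and Esrp2, an epithelial splicing factor, at 18.7 and 18.7 against 8.97 and 7.95 (fold 1.06). Ovol1 (1.13), Ocln (1.09), which encodes occludin, Marveld2 (0.96), which encodes tricellulin, and Elf3 (0.95) made up the rest of the 7. The E-cadherin gene Cdh1 stood at 48.9 and 60.3 FPKM against 23.7 and 30.1 and did not pass (adjusted p = 0.0819). Relative to the mean of the Sox10+EpCAM+ libraries, the median member stood at 50.5% in CD24+CD49f+ replicate 1 and at 47.7% in replicate 2.

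The 7 calls rested on both Sox10+EpCAM+ libraries and on the scaling. Without Sox10+EpCAM+ replicate 1 or 2, and with all libraries scaled to the same sum, 0 of the 26 were called, while 23 and 24 were called without CD24+CD49f+ replicate 1 or 2. All 26 folds stayed above 0 in these fits. Scaling to the same sum moved the median of all genes to −0.21, and the junction median was then 0.9 above it, as against 0.92 without that scaling.

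Luminal and basal genes gave few calls. Of 22 luminal genes tested, 11 had an unadjusted p under 0.05, 9 of them higher, and after adjustment 1 was higher, Areg, a ligand of the EGF receptor (13.9 and 13.4 FPKM in Sox10+EpCAM+, 6.73 and 4.81 in CD24+CD49f+, fold 1.13, adjusted p = 0.0499). Cited1, a transcriptional coactivator of luminal cells, was lower (3.24 and 2.17 against 8.85 and 8.9 FPKM, fold −1.43), but stood at 11.8 to 16.7 FPKM in stroma. Both calls ended without either Sox10+EpCAM+ library (adjusted p of 0.103 to 0.41) and with scaling to the same sum (0.622 and 0.101). The luminal keratin gene Krt8 stood at 140 and 170 FPKM in Sox10+EpCAM+ and at 108 and 59.7 in CD24+CD49f+ (fold 0.93, adjusted p = 0.244). Of 19 basal genes 0 passed limma, and 11 had an unadjusted p under 0.05, 9 of them higher. Krt14, a basal keratin, stood at 71.9 and 105 FPKM against 63.9 and 37.2, and Trp63, the master transcription factor of basal epithelium, at 8.41 and 8.44 against 3.6 and 5.1. Their folds of 0.82 and 0.83 were close to that of Krt8, and these 3 genes did not pass (adjusted p of 0.0958 to 0.296). Their libraries did not overlap between the groups, as was so for 50.6% of all genes.

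The test also called genes outside the junction list. Lalba (ENSMUSG00000022991, chromosome 15, 98480400 to 98482683), which encodes the milk protein alpha-lactalbumin, stood at 34.2 and 24.4 FPKM in Sox10+EpCAM+ and at 8 and 3.31 in CD24+CD49f+, a fold of 2.26 (SE 0.41, adjusted p = 0.0453). Its highest value in stroma was 0.255 FPKM. Csn3, which encodes the milk protein kappa-casein, stood at 311 and 263 FPKM against 229 and 66.5 and did not pass (adjusted p = 0.384). Pglyrp1, an antibacterial peptidoglycan binder, stood at 21.3 and 19.9 FPKM against 5.34 and 5.26 (fold 1.78, adjusted p = 0.00991), Gpx2, a glutathione peroxidase of epithelia, at 11.9 and 6.88 against 2.58 and 2.38 (1.53), and Grhl3, a transcription factor of epidermal barrier formation, at 9.01 and 11 against 3.08 and 3.74 (1.32). Etv4, a transcription factor induced by FGF signals, stood at 27.3 and 21.8 FPKM against 10.4 and 10.4 (1.16). The pseudogene Rps15a-ps8, whose reads may come from its parent gene, stood at 86.4 and 84.6 FPKM against 12.7 and 26.2 (fold 2.16), and its call ended without replicate 1 or 2 (adjusted p = 0.126 and 0.099). Of the 58 higher genes, 45 had both CD24+CD49f+ libraries above all 3 stroma libraries. The calls of Lalba, Pglyrp1, Gpx2, Grhl3 and Etv4 ended without Sox10+EpCAM+ replicate 1 (adjusted p of 0.0908 to 0.488) and, except that of Gpx2, without replicate 2 (0.0517 to 0.252). Scaling to the same sum ended those of Pglyrp1, Gpx2, Grhl3 and Etv4 (0.0983 to 0.551).

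Genes linked to mammary progenitors and to embryonic mammary signalling gave calls in 1 direction. Of 15 progenitor-linked genes, 2 were lower in Sox10+EpCAM+ and 0 higher after adjustment. The list as a whole leaned the other way, with 9 of 15 folds above 0 and a median of 0.52. Of its 8 genes at an unadjusted p under 0.05, 5 were higher. Procr, the protein C receptor, which is used as a stem cell marker and is also made by endothelium and mesenchyme, stood at 0.96 and 1.44 FPKM in Sox10+EpCAM+, at 10.9 and 6.68 in CD24+CD49f+ and at 14.4 to 26.5 in stroma (fold −2.13, adjusted p = 0.0208). Cd55, which restrains complement, had the same order (fold −2.09), and both calls ended without Sox10+EpCAM+ replicate 1 (adjusted p = 0.0775 and 0.0653). Lgr5, a receptor of epithelial stem cells, stood at 25.9 and 34.1 FPKM against 15.4 and 18.5 and did not pass (adjusted p = 0.128). Of 11 embryonic mammary genes tested, 5 were lower, among them Fgf10 and Pth1r, the mesenchymal receptor for parathyroid hormone-related protein (0.114 and 0.0744 FPKM in Sox10+EpCAM+, 3.9 and 4.8 in CD24+CD49f+, 9.15 to 13.6 in stroma, fold −2.29). Its epithelial ligand Pthlh stood at 59.8 and 62.1 FPKM against 45.1 and 26.6 and did not pass (adjusted p = 0.231).

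Among called genes with no provisional or small RNA name, the 4 largest rises were of histone H2B genes. Of 14 H2B genes tested, 4 were higher in Sox10+EpCAM+ and 0 lower. Hist1h2bm (ENSMUSG00000096807, chromosome 13, 21722098 to 21722478) stood at 224 and 238 FPKM in Sox10+EpCAM+, at 1.33 and 0.203 in CD24+CD49f+ and at 0.0192 to 0.881 in stroma (fold 7.12, SE 0.35, adjusted p = 0.00456). Hist1h2bf (chromosome 13, 23573736 to 23574196) stood at 106 and 112 FPKM, 1.16 and 0.684, and 0.59 to 0.951 in the same order (fold 5.86, adjusted p = 0.00326). Hist1h2bb (chromosome 13, 23746734 to 23747202) stood at 80.6 and 86.8, 2.78 and 0.389, and 0.489 to 0.781 (fold 5.21), and Hist2h2be (chromosome 3, 96221121 to 96223738) at 9.92 and 10.4, 1.32 and 1.16, and 0.556 to 0.799 (fold 2.32). The 2 Sox10+EpCAM+ libraries were high and all 5 others low. Summed over 18 H2B entries the level was 503 and 527 FPKM in Sox10+EpCAM+ and 20.6 to 63.2 elsewhere. Of 15 tested genes for H1, H2A, H3 and H4, 0 were called by limma and 3 had an unadjusted p under 0.05, with folds between −0.78 and 0.78.

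Since H2B genes are similar copies (86.1% to 97.1% identity among the 4 called), their coding sequences bear on how reads are shared. The first 120 coding bases of the 4 called genes and of Hist1h2bl, which was not called (5.46 and 5.6 FPKM against 4.2 and 1.88, adjusted p = 0.277), are given from the start codon, from GENCODE vM21 (GRCm38). Capitals mark bases that differ from Hist1h2bm at the same position.
Hist1h2bm: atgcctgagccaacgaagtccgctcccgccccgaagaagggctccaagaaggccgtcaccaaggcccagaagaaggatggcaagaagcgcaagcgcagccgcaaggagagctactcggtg
Hist1h2bf: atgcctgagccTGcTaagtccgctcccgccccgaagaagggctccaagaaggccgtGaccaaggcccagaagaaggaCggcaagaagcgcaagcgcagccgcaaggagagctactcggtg
Hist1h2bb: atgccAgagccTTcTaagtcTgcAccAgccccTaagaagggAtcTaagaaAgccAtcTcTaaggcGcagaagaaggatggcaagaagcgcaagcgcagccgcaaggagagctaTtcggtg
Hist2h2be: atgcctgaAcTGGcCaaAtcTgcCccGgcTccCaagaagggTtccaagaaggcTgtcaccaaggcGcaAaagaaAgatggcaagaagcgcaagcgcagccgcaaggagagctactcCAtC
Hist1h2bl: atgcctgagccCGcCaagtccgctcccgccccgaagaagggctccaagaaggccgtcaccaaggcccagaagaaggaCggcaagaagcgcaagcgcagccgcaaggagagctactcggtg
Over 381 coding bases Hist1h2bm shared 97.1% with Hist1h2bf, 94% with Hist1h2bb, 87.1% with Hist2h2be and 97.9% with Hist1h2bl. Of its windows of 100 bases, the read length, 9.93% also occurred in another H2B gene, against 58.9% for Hist1h2bf, 47.5% for Hist1h2bb and 0% for Hist2h2be. By this count the sharing of reads bears most on Hist1h2bf and Hist1h2bb, little on Hist1h2bm and not on Hist2h2be. Only identical windows of coding sequence were counted, so some uncertainty remains for single H2B genes. Their sum is uncertain too, since FPKM divides by transcript length.

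**Figure D4:**
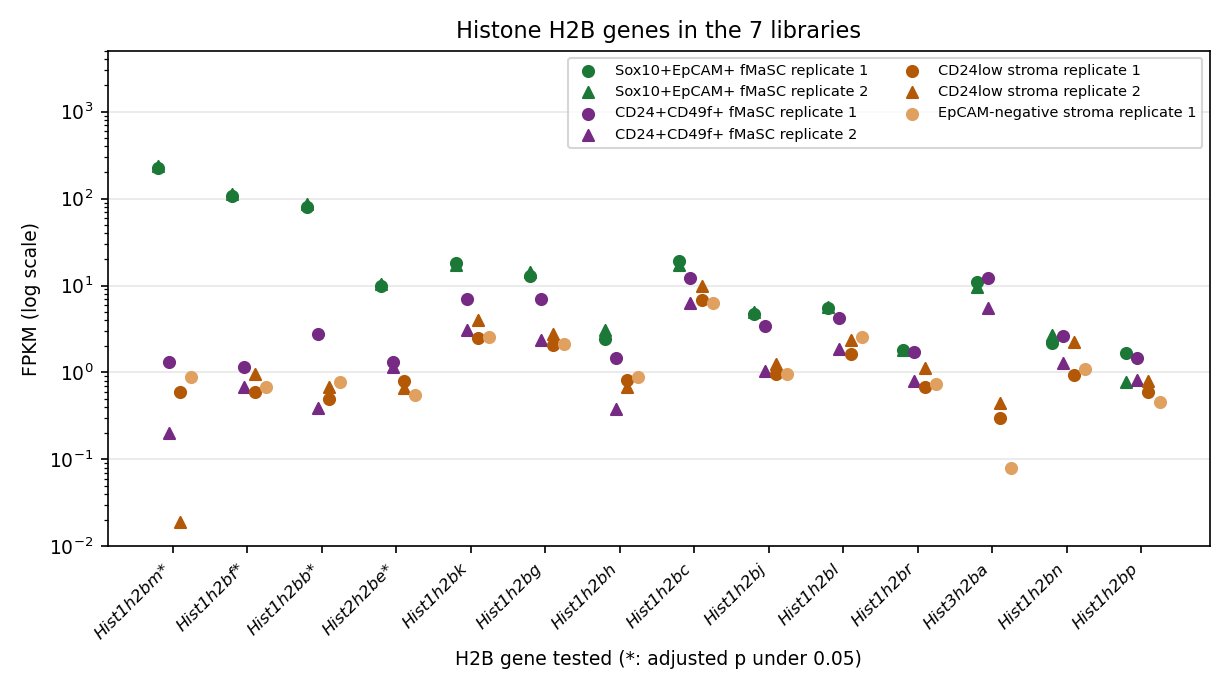
FPKM (y axis, log scale) of the 14 tested H2B genes (x axis, ordered by fold change; an asterisk marks an adjusted p under 0.05) in the 7 libraries, coloured by fraction and shaped by replicate. The 4 genes at the left lie at 9.92 to 238 FPKM in Sox10+EpCAM+ and at 2.78 or lower in every other library.

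Reads for a green fluorescent protein moved with these genes. Venus is a variant of that protein, and the table carries an added sequence named as a spliced GFP, listed at 202 and 211 FPKM in Sox10+EpCAM+, at 0.66 in EpCAM-negative stroma and at 0.0531 to 0.131 in the 4 libraries of the CD24 sort. Its part in the H2B values was not tested.

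A second group of higher genes, chosen by position after their values were seen, lay next to Sox10 on chromosome 15. Within 250 kb on either side of the start of Sox10 (chromosome 15, 79154913 to 79164490), 19 of 22 annotated genes were tested and 6 were higher in Sox10+EpCAM+, against 0.423% of all genes. Their starts lay between 24.2 kb to one side and 120.3 kb to the other, a span that the called genes themselves set and in which 8 tested genes start. Pick1 (ENSMUSG00000068206, chromosome 15, 79229173 to 79256674), an adaptor of membrane receptors, stood at 56.1 and 45 FPKM in Sox10+EpCAM+, at 11.5 and 11.4 in CD24+CD49f+, at 2.55 and 2.43 in CD24low and at 9.52 in EpCAM-negative stroma (fold 2.04, SE 0.20, adjusted p = 0.0101). Polr2f (ENSMUSG00000033020, chromosome 15, 79141351 to 79151774), a subunit shared by RNA polymerases, stood at 96.2 and 77.1, 26.4 and 13.4, 10.1 and 13.3, and 32.2 FPKM in the same order (fold 2.13, adjusted p = 0.0393). For both genes, and for Slc16a8 and Baiap2l2, the EpCAM-negative library of the reporter sort lay above both CD24low libraries. For Gm10863, Lgals1-ps2, 1700088E04Rik and Sox10 in the same span it did not. In the rest of the window some tested genes had this order and others did not, so the order is not particular to the span. These are differences between 1 library and 2, with no test.

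The other members of the group were Gm10863 (fold 2.00), Lgals1-ps2 (1.75), a pseudogene, Slc16a8 (1.20), a monocarboxylate transporter, and Baiap2l2 (1.02), a membrane-bending protein. Slc16a8 and Lgals1-ps2 lie inside Pick1, and the counting is not stated to use strand, so their reads may be shared. Sox10 (fold 0.86, adjusted p = 0.0886) and 1700088E04Rik (0.89, adjusted p = 0.0567) in the same span did not pass. In the rest of the window, Lgals1, a galectin gene of stroma, was lower (23.6 and 22.6 FPKM against 283 and 165, fold −3.17). Polr2f lost its call without Sox10+EpCAM+ replicate 1 or 2 (adjusted p = 0.152 and 0.0783), and so did Slc16a8 (0.0941 and 0.0878) and Baiap2l2 (0.39 and 0.295). Pick1, Lgals1-ps2, Gm10863 and Lgals1 lost theirs without replicate 1 (0.0815, 0.0532, 0.0886 and 0.0554), and scaling to the same sum ended the calls of Slc16a8, Lgals1-ps2 and Baiap2l2 (0.0685, 0.072 and 0.774). Whether the reporter contributes to these values was not tested.

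**Figure D5:**
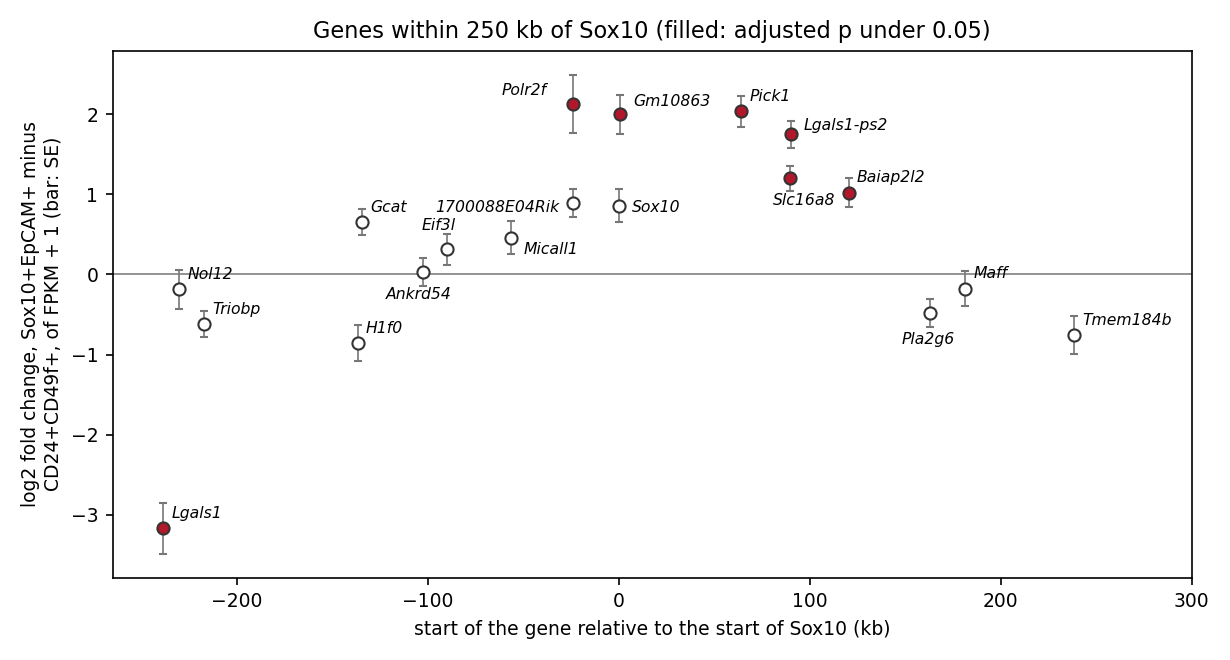
Log2 fold change (Sox10+EpCAM+ minus CD24+CD49f+, of FPKM + 1, y axis, bars show the SE) of the 19 tested genes within 250 kb of Sox10, by the distance of their start from the start of Sox10 in kb (x axis). The 6 filled points above 0 are the genes called higher, from −24.2 to 120.3 kb, and the filled point at the lower left is Lgals1.

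Lists of general cell programmes gave few calls. Of 20 proliferation genes 0 passed limma (median −0.15), of 18 ribosomal protein genes 0 (0.48), of 13 mitochondrially encoded genes 0 (0.67) and of 12 reference genes 0 (0.28). At an unadjusted p under 0.05 the same lists gave 0, 1, 0 and 1 genes. The ribosomal and mitochondrial medians became −0.07 and −0.08 without CD24+CD49f+ replicate 2, and that of proliferation 0.06. Within CD24+CD49f+, the median mitochondrial gene was 1.49 and the median ribosomal gene 1.14 higher on the log2 scale in replicate 1 than in replicate 2, against a median absolute difference of 0.366 over all genes (0.141 between the Sox10+EpCAM+ libraries). Of 21 immediate early genes, which respond to handling as well as to signals, 1 was higher and 1 lower after adjustment. Their median was −0.83, with 19 of 21 folds below 0, and 11 of the 12 genes at an unadjusted p under 0.05 were lower. Fosl1 stood at 34.7 and 35.8 FPKM against 15.8 and 15.9 (fold 1.11), and the phosphatase gene Dusp1 at 47.6 and 51.7 against 116 and 131 (fold −1.29), and both calls ended without either Sox10+EpCAM+ library (adjusted p of 0.403 to 0.612). Egr1 stood at 156 and 181 FPKM in Sox10+EpCAM+, at 426 and 756 in CD24+CD49f+ and at 974 to 1184 in stroma, without a call (adjusted p = 0.0828). The list counted 16 lower members without CD24+CD49f+ replicate 1 and 8 without replicate 2. Of 20 glycolysis and hypoxia genes 0 were higher and 1 lower after adjustment, while 17 folds lay above 0 (median 0.54) and 8 of the 10 genes at an unadjusted p under 0.05 were higher. Of 17 ErbB and FGF response genes 2 were higher and 0 lower (median 0.42). Both skeletal muscle genes tested had lower values in Sox10+EpCAM+, and Des, an intermediate filament of muscle, was called (0.0975 and 0.149 FPKM against 4.25 and 3.01, fold −2.03). Lists of cartilage-type matrix (7 tested), epidermis and hair follicle (5) and platelets (1) gave 0 calls with limma and 4, 2 and 0 genes at an unadjusted p under 0.05. A Merkel cell list of 2 gave 1 call, of the transcription factor gene Sox2 (0.0292 and 0.173 FPKM against 1.44 and 2.38, fold −1.39), which is also made by Schwann cells. Its call ended without either Sox10+EpCAM+ library (adjusted p = 0.137 and 0.0664).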

How the data were processed

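Libraries were made with Illumina TruSeq kits from sorted cells of E17.5 embryos and read as paired ends of 100 bases with duplicate lanes of a HiSeq2000, per the labels' protocols. STAR, Cufflinks and the builds GRCm38 and mm10 are named in the submitters' processing notes, without versions. The authors deposited 1 table of FPKM values, with no counts, so count tests were not run. A virus-driven Sox10 experiment that the growth text also describes is not analysed here.

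Libraries were grouped by their labels. Log2(FPKM + 1) was computed here from the deposited values for genes at 1 FPKM in at least 2 of the 4 libraries, and tested with limma 3.58.1 (empirical Bayes with trend, two-sided, 2 residual degrees of freedom, no covariate, R 4.3.3) and Benjamini-Hochberg adjustment at 0.05. Figures were drawn with matplotlib 3.10.9, and tables were handled with numpy 2.4.6 and pandas 2.3.3 under Python 3.11.15. Symbols for 36664 entries (95%) came from GENCODE vM21, and 8 added sequences stayed out of the tests. Nothing in the labels says that replicates came from separate animals, so p-values measure only the spread between these samples. An exact permutation test of 2 against 2 cannot go below p = 0.33 (two-sided) and was not used. Depth was approximated from low values, where 72.4% to 79.7% fell within 0.15 of a whole number of fragments.

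The genes, 33 lists (528 genes, 4 of them absent from the table) and tests were chosen with earlier results of these data known. Named were the 4 sort markers, up to 12 called genes per direction with the largest fold, groups that do not overlap, 5 FPKM in the higher group and no provisional name, and up to 5 members per list, called ones with the largest fold first and then those at the highest level, leaving out uncalled members whose fold changed sign under an alternative. Neighbours of Sox10, H2B genes and further list members were chosen after their values were seen. On simulated data (200 changed genes in each of 10 runs of 13717), the test recovered 1.04% of genes with a log2 change of 1, 56.3% at 2 and 87.7% at 4, with 3.4 false calls per run. The simulation gave both groups the same spread per gene and let genes vary independently. In the data the CD24+CD49f+ pair was the more spread, so these rates may not hold here. Alternatives were other pseudocounts, filters, scalings, all 7 libraries in the fit, no trend, and leaving out each library, where the lone library of a group is assumed to vary like the other group. Values of some list members are not reported here.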

Additional observations from a re-analysis of the deposited data

Results flagged for a closer look

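Reads of 2 added sequences, outside the gene comparison, were above their level in the 4 libraries of the CD24 sort. The sequence named spliced GFP stood at 202 FPKM in replicate 1 of Sox10+EpCAM+, at 211 in replicate 2 and at 0.66 in EpCAM-negative stroma, against 0.0531 to 0.131 in the CD24 sort. The sequence named as a mouse L1 GFP reporter stood at 21.2, 21.9 and 0.0679 FPKM in the same 3 libraries, against 0.00148 to 0.0111. All 3 libraries came from the reporter sort. The other 6 added sequences were at 0 in all 7 libraries.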

How the results depend on the processing

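The 882 calls (58 higher and 824 lower in Sox10+EpCAM+) became 1451 with all 7 libraries in the fit (309 higher), 15 with no filter on low values (2 higher, 13 lower), 297 among genes with a mean of 5 FPKM or more (25 higher, 272 lower) and 586 with quantile scaling (500 lower). Without the filter 26846 genes were tested and 4427 had an unadjusted p under 0.05, against 2862 of 13717. Scaling to the same sum left 25 higher genes, and 30 when mitochondrial and erythroid genes were kept out of the sum. Lower genes made up 93.4% of the calls, 78.7% with all 7 libraries and, across the other alternatives that keep all 4 libraries, between 85.3% and 96.8%. When each library was left out in turn, the calls ranged from 321 (without Sox10+EpCAM+ replicate 1) to 5661 (without CD24+CD49f+ replicate 1), the higher ones from 18 to 2606 and the lower ones from 302 to 3055. With only 1 library in a group the spread rests on the other pair, and the Sox10+EpCAM+ pair was the closer one. Of 90 genes called and named in the text, 51 kept their call in each of the 4 fits that left out a library, 71 with scaling to the same sum, 68 with quantile scaling, 76 with a pseudocount of 5, 8 with no filter and 90 with median-ratio scaling. Of 62 of them above the mean of 5 FPKM, 48 kept it. List members whose fold changed sign under an alternative were not named singly, so the 115 genes named and tested say nothing of how often that occurs. Over all 381 list genes tested, 0 of the called ones changed sign, and of the rest up to 16 did under a scaling and 55 without CD24+CD49f+ replicate 2. The causes of these changes were not tested. No paired analysis was possible because nothing in the labels ties a library of one fraction to a library of the other.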
